A study of Mus musculus with 4 samples.

Results

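B lymphocyte genes were examined in RNA sequencing data of mouse articular cartilage. The members were 9 of the 24532 genes in the table, taken by symbol. They comprised 5 genes linked to B cell precursors (Vpreb1, Igll1, Vpreb3, Rag1 and Ebf1) and 4 genes of B cells in general (Pax5, Cd79a, Cd79b and Ms4a1). All 9 were above 0 in each of the 4 libraries, and Rag1 was the only one that stayed under 1 FPKM (fragments per kilobase of transcript, scaled to the mapped fragments of the library) everywhere.

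The 4 libraries came from sham and injured cartilage of young and of adult wild type C57BL/6 mice, with no transgene or drug in any group. Young mice were 3 weeks old. For adult mice the sources differ, with 10 weeks in the methods, 12 weeks in the sample titles and 14 weeks in the age field. Injured cartilage was collected 3 days after surgery. The methods describe full-thickness injury of the patellar groove in male mice, although the labels of the same samples name DMM, surgical destabilization of the medial meniscus. The adult sham library is labelled with days 3 to 14. Each library was made from 1 pool, of 10 injured or 5 uninjured mice, so that no group has a replicate, no difference has an error or a p-value, and neither age nor surgery can be told apart from the pool. All differences are between these 4 libraries, and 4 values in a row stand for young sham, young injured, adult sham, adult injured. In bulk RNA, fewer cells of a type and less RNA per cell cannot be told apart.

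B cells arise in the bone marrow from lymphoid progenitors. Ebf1 and Pax5 are the transcription factors that set and keep B cell identity, and Rag1 encodes a subunit of the recombinase that cuts immunoglobulin gene segments. Vpreb1 and Igll1 (lambda5) encode the surrogate light chain, which pairs with the first rearranged heavy chain in the pre-B cell receptor and is switched off in mature B cells. Vpreb3 encodes a related protein of the secretory pathway of B lineage cells. Cd79a and Cd79b encode the signalling chains of the antigen receptor in precursors and mature B cells alike, and Ms4a1 encodes CD20, a surface protein of later stages. Ebf1 is not restricted to B cells, since stromal and fat cells also express it.

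The labels give the cell type as chondrocyte. Of 9 chondrocyte markers, all were at 1 FPKM or more in every library, with Col2a1, the main cartilage collagen, at 9349 (sham) and 7903 FPKM (injured) in young and 3173 (sham) and 3750 FPKM (injured) in adult mice. Matn3, a cartilage matrix protein, was at 391.8 and 355.8 FPKM in the young and at 2.30 and 1.48 FPKM in the adult libraries. The FPKM of all genes summed to between 469939 and 533468 per library. Fragment numbers were estimated from the regular steps of the lowest values of single-transcript genes. If 1 step is 1 fragment, the libraries held 25600000 to 30800000 fragments.

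Promoter sequences of 7 of the 9 members were found in the RefSeq table of build GRCm38.p6, the assembly of mm10. The 250 bases before a start given in that table are shown for 4 members whose levels differed together between the ages, as context for the expression values, because no binding was measured. They are chr16:16863986-16864235 (minus strand) for Igll1, chr10:75948050-75948299 (plus strand) for Vpreb3, chr2:101649533-101649782 (minus strand) for Rag1 and chr7:24897247-24897496 (plus strand) for Cd79a. The Vpreb3 start is an internal one, within the interval of the gene given with its values. Capitals mark matches, on either strand, to CCCNNGGG and TCNNGGGA (forms of the EBF core), ATGCAAAT (the octamer of Oct factors) and TGTGGT (the RUNX core).
Igll1: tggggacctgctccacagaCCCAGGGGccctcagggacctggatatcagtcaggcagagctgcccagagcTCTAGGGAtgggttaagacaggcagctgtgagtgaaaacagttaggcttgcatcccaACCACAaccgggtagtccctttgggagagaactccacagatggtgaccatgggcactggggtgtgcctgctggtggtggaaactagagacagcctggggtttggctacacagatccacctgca
Vpreb3: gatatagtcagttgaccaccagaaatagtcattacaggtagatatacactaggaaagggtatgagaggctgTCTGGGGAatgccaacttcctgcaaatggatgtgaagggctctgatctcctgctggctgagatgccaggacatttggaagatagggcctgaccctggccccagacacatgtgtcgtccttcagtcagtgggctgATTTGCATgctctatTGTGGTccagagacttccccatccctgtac
Rag1: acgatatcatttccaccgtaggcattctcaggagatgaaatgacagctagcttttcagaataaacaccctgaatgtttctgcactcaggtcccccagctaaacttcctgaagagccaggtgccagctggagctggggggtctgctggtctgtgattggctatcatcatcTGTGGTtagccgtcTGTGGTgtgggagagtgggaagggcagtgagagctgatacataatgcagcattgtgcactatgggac
Cd79a: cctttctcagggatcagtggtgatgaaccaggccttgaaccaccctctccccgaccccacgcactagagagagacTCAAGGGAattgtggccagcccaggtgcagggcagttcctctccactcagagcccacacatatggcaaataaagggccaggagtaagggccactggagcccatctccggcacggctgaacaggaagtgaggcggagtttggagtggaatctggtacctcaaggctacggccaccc
The form TCNNGGGA began 175 bases before the start in Cd79a, 179 in Vpreb3 and 180 in Igll1, and was present in 4 of the 7 members against 15.1% of 32851 promoters. The octamer was present in Vpreb3, 45 bases before the start, and in 1.60% of all promoters. The RUNX core was present in 4 of the 7 members and in 14.0% of all promoters, and Rag1 held it at 81 and 67 bases before the start. CCCNNGGG was present in Igll1 alone among the 7 members and in 11.8% of all promoters. The E box CANNTG, not in capitals, was present in all 7 members and in 66.2% of all promoters, and 1 E box of Rag1 overlapped the RUNX match at 81 bases. No match in capitals overlapped another. The motifs were chosen with these sequences known, and a match describes the letters only.

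The first comparison asked how sham cartilage of the 2 ages differed. Of the 9 members, 8 were lower in adult than in young sham cartilage, and 7 of 9 were at least 2-fold lower on the log2(FPKM + 1) scale, against a background of 10.6% of 18181 genes. The median log2 ratio of the 9 members was −1.19, and that of all genes tested was −0.15. The 4 precursor genes other than Ebf1 were at 7.64% to 23.6% of their young FPKM, and the 4 B cell genes at 2.53% to 29.2%. None of the 9 members was 2-fold higher, where the background was 2.66%.

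**Figure D1:**
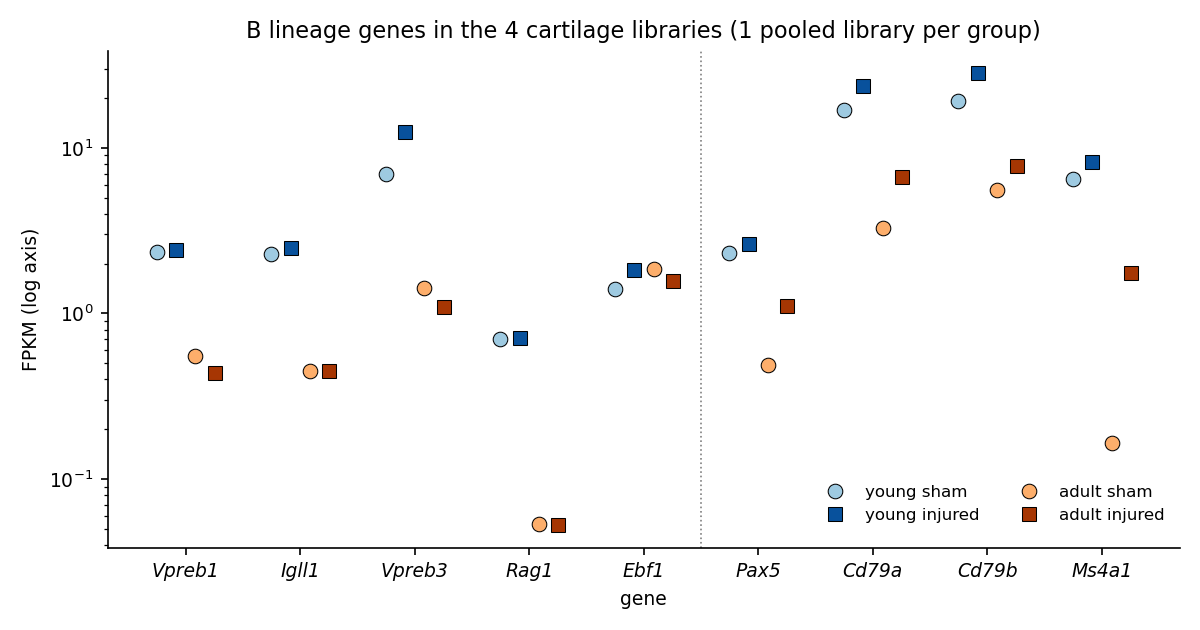
FPKM (log axis) of the 9 genes in the 4 libraries, with 1 point per library and no error because each group is 1 pool. Circles are sham and squares injured cartilage, and blue is young and orange adult; all genes except Ebf1 had both adult points under both young points.

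Among the surrogate light chain genes, Vpreb1 (chromosome 16, 16868401 to 16869255) was at 2.35 (sham) and 2.41 FPKM (injured) in young mice and at 0.555 (sham) and 0.435 FPKM (injured) in adult mice. Igll1 (chromosome 16, 16860671 to 16863985) had 2.29 (sham) and 2.49 FPKM (injured) in young and 0.446 (sham) and 0.449 FPKM (injured) in adult mice. These neighbouring genes, 4417 bases apart in the GENCODE annotation, thus had similar levels in each library, and both adult libraries lay under both young ones. The sham log2 ratios for adult against young were −1.11 for Vpreb1 and −1.19 for Igll1. Vpreb1 shares 30.2% of its 31-base transcript words with Vpreb2, a near copy, so that its value depends on how shared fragments were assigned. Vpreb2 itself was at 0.412, 0.178, 0.265 and 0 FPKM. In the GENCODE annotation Rag1 overlaps B230118H07Rik on the same strand, and Vpreb1, Vpreb3, Ebf1, Pax5 and Ms4a1 each overlap a gene on the opposite strand. Whether the authors' counting used strand is not given in the sources used here, so the values of the latter 5 are uncertain to that extent, and that of Rag1 is uncertain with or without strand.

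Vpreb3 (chromosome 10, 75943024 to 75949657) had the highest level of the precursor genes in both young libraries. Young mice had 6.95 (sham) and 12.4 FPKM (injured) and adult mice 1.43 (sham) and 1.10 FPKM (injured), and its sham log2 ratio was −1.71. Rag1 (chromosome 2, 101638252 to 101649532) was at 0.698, 0.711, 0.0533 and 0.0526 FPKM. Its level in adult sham was 7.64% of that in young sham cartilage, but the log2 ratio of FPKM + 1 was only −0.69, because the added 1 exceeds all of its values. Rag1 was accordingly not counted among the 7 genes. The adult values rest on few fragments, an estimated 8.55 to 27.5 per gene and library for Vpreb1, Igll1, Vpreb3 and Rag1, compared with 47.2 to 203.8 in the young libraries.

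Ebf1 (chromosome 11, 44618100 to 45008096) was the exception. Its FPKM was 1.41 (sham) and 1.82 (injured) in young mice and 1.86 (sham) and 1.57 (injured) in adult mice. The adult sham value was the highest of the 4, the sham log2 ratio was 0.25, and the ages overlapped. Its target in the B lineage, Pax5 (chromosome 4, 44524748 to 44710694), was at 2.31, 2.61, 0.486 and 1.11 FPKM, with a sham log2 ratio of −1.16. Of 11 stromal and adipocyte genes, Pdgfra and Fabp4 had the highest mean FPKM. On the log2(FPKM + 1) scale none of the 11 differed 2-fold between the shams, where 10.6% of all genes were lower and 2.66% higher. Their median log2 ratio was −0.26, near the −0.30 of all genes at 1 FPKM or more in every library. Of the 11, 8 were below 0, among them Pdgfra (28.4 FPKM in young and 15.4 in adult sham, −0.84), while Adipoq, an adipocyte hormone, had 4.33 FPKM (young) and 4.54 FPKM (adult). The added 1 lessens differences of low genes here too. Ebf2, named after its values were seen, had 1.17 FPKM (young sham) and 0.265 FPKM (adult sham), 22.6% of the young level. The part of such cells in the level of Ebf1 was not tested.

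The antigen receptor chains were the most abundant members in every library. Cd79b (chromosome 11, 106311341 to 106314562) was at 19.1 (sham) and 28.2 FPKM (injured) in young mice and at 5.59 (sham) and 7.73 FPKM (injured) in adult mice. Cd79a (chromosome 7, 24897497 to 24901858) was at 16.9, 23.8, 3.30 and 6.68 FPKM, and its sham log2 ratio of −2.06 exceeded in size the −1.61 of Cd79b. Cd79a shares 12.2% of its 31-base words with Gm32220. Ms4a1 (chromosome 19, 11249679 to 11266149) was at 6.51, 8.27, 0.165 and 1.77 FPKM. Its adult sham value, an estimated 15.6 fragments against 523.7 in young sham cartilage, gave the largest difference of the 9 members, a log2 ratio of −2.69. Ms4a1 therefore had rank 4 of the 9 genes by level in young sham and rank 8 in adult sham cartilage.

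The size of the age difference depended on the scaling of the libraries. Over all genes, 484 were at least 2-fold higher and 1934 lower in adult sham cartilage on FPKM, against 972 and 1009 after median-of-ratios scaling, which moved the median of all genes from −0.15 to −0.00. The 8 members other than Ebf1 were below 0 in this comparison under all 4 scalings tried, which were FPKM, TPM, median-of-ratios and quantile. The number at least 2-fold lower was 7 on FPKM, 8 with TPM (where 14.9% of all genes were lower), 5 with median-of-ratios (5.55%) and 4 with quantile normalization (5.27%).

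The injured libraries showed the same order of the ages for 8 of the 9 members, and the reverse order for Ebf1. In adult against young injured cartilage, 6 of 9 members were at least 2-fold lower, against 3.09% of all genes tested, and none was 2-fold higher, against 1.80%. The median log2 ratio of the members was −1.27 and that of all genes −0.04. Vpreb3 differed most, with −2.68, followed by Ms4a1 and Cd79b with −1.74 each and Cd79a with −1.69. Pax5 (−0.78) and Rag1 (−0.70) did not reach 2-fold, and Ebf1 was at −0.13. The injured libraries are separate pools from the shams, but each stands for 1 group as well.

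**Figure D2:**
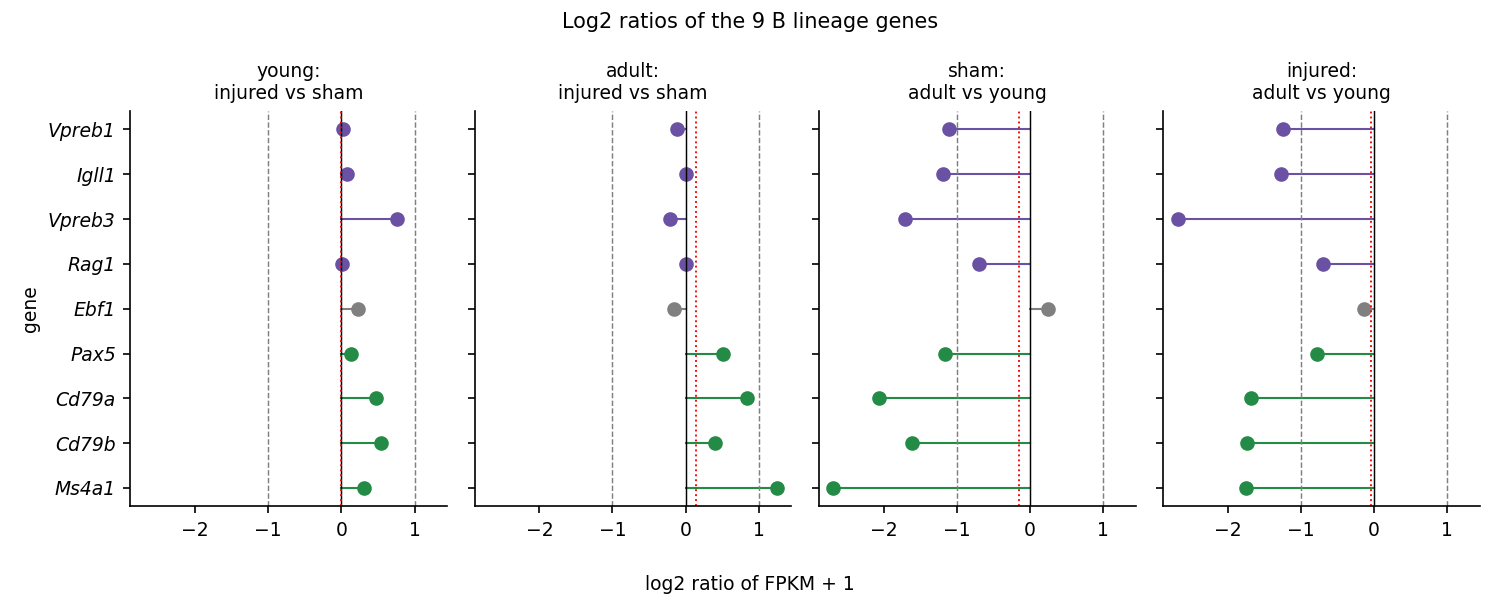
Log2 ratios of FPKM + 1 for the 9 genes in the 4 comparisons, with precursor genes in purple, Ebf1 in grey and B cell genes in green. Dashed lines mark 2-fold and the red dotted line the median of all genes tested; the points left of −1 are confined to the 2 comparisons between the ages.

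The next comparison asked what changed 3 days after injury in young cartilage. None of the 9 members reached 2-fold in either direction, where 4.57% of all genes were at least 2-fold higher and 1.27% lower. Vpreb3 had the largest log2 ratio, 0.76, and its FPKM was 1.79 times that of the sham. Cd79b (0.54) and Cd79a (0.47) followed, with Ms4a1 at 0.30, Ebf1 at 0.23 and Pax5 at 0.13. Vpreb1 (0.02), Igll1 (0.08) and Rag1 (0.01) were nearly level, and each of these 3 was below 0 on the TPM scale and after quantile normalization. The macrophage markers of the same pools were all at least 2-fold higher, 10 of 10, with a median of 3.17.

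In adult cartilage 1 of the 9 members, Ms4a1, was at least 2-fold higher after injury, a share close to the 6.90% of all genes tested. None was 2-fold lower, against 1.46%. The Ms4a1 log2 ratio was 1.25, and its FPKM was 10.7 times that of the sham library, which held an estimated 15.6 fragments of it. With a pseudocount of 5 FPKM the log2 ratio was 0.39, under 2-fold. The log2 ratios of the other B cell genes were 0.84 for Cd79a, 0.50 for Pax5 and 0.41 for Cd79b, and those of FPKM without the added 1 corresponded to 2.03, 2.28 and 1.38 times the sham. Vpreb1, Igll1, Vpreb3 and Rag1 had 0.771 to 1.00 times their sham FPKM, with log2 ratios of −0.12, 0.00, −0.21 and −0.00, and Ebf1 had a log2 ratio of −0.15. The median log2 ratio was 0.67 for the 4 B cell genes, −0.06 for the 4 precursor genes and 0.14 for all genes. For the 12 further early B lineage genes described below it was 0.51, with 3 of 12 below 0, so the low median belongs to these 4 precursor genes. Over all genes, 1255 were at least 2-fold higher and 266 lower on FPKM, against 866 and 455 after median-of-ratios scaling, which moved their median from 0.14 to 0.01. The 4 B cell genes stayed above 0 under each of the 3 rescalings, where the lowest value was the 0.09 of quantile normalization. The precursor genes ranged from −0.20 to 0.05 on the TPM scale, and all 4 were below 0 after median-of-ratios scaling and quantile normalization.

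**Figure D3:**
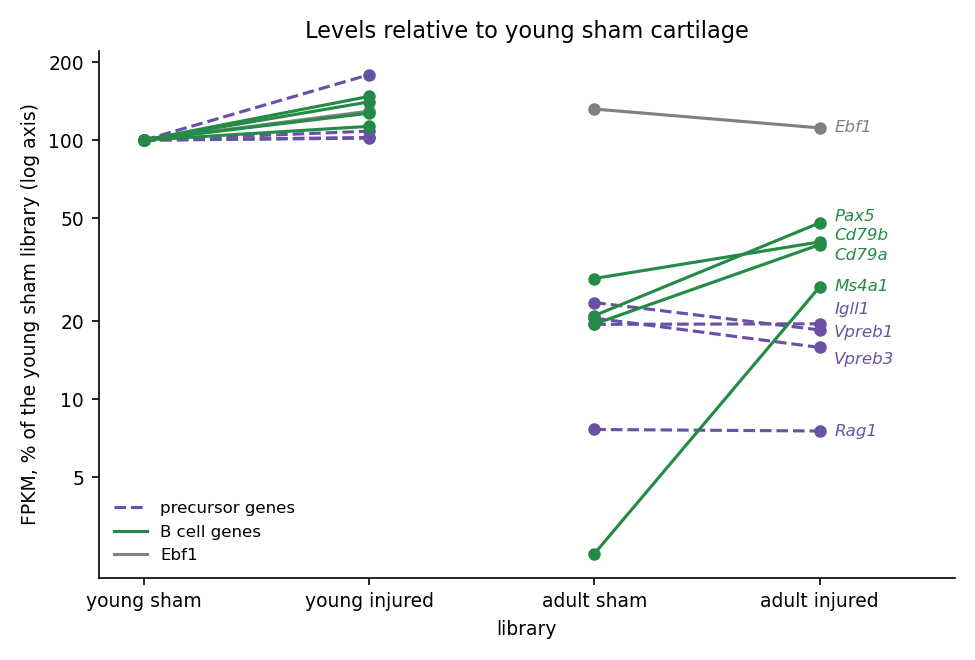
FPKM of each gene as a percentage of its value in young sham cartilage (log axis), with lines joining sham and injured libraries of 1 age. The 4 B cell genes (green) stood at 27.1% to 47.9% in adult injured cartilage, whereas the 4 precursor genes (purple, dashed) stayed at 7.54% to 19.6%, and Ebf1 (grey) was at 111.5%.

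A ratio formed within each library does not depend on any scaling factor between libraries. The summed FPKM of Cd79a, Cd79b, Ms4a1 and Pax5 was 3.65 times that of Vpreb1, Igll1, Rag1 and Vpreb3 in young sham and 3.48 times in young injured cartilage. In adult mice the ratio was 3.84 (sham) and 8.48 (injured), so that adult injured cartilage had the highest of the 4. In adult mice the summed B cell genes were at 9.53 (sham) and 17.3 FPKM (injured), and the summed precursor genes at 2.48 and 2.04 FPKM. Ebf1 was left out of the precursor sum. With Ebf1 that sum was 13.7, 19.9, 4.34 and 3.61 FPKM, which lowers every ratio, above all in the adult libraries. Without Vpreb3 the ratios were 8.39, 11.2, 9.04 and 18.5, and without Cd79b 2.09, 1.92, 1.59 and 4.69. The summed erythroid precursor markers over the same precursor genes gave 23.9, 20.9, 22.3 and 37.1, and without Tfrc, the transferrin receptor, 18.6, 18.1, 17.7 and 20.2. Whether the B cell ratio differed from these was not tested. These ratios were chosen after the values were seen and have no replicate check.

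Other genes of the B lineage were taken from lists. Of 12 further early B lineage genes, 3 were at least 2-fold lower in adult sham cartilage, against 10.6% of all genes, and all 12 were below 0, with a median log2 ratio of −0.52. Myb, a transcription factor of blood progenitors, had sham levels of 2.22 FPKM (young) and 0.425 FPKM (adult), a log2 ratio of −1.17, and Lef1, a Wnt pathway factor of pro-B cells, had 1.68 and 0.155 FPKM, a log2 ratio of −1.22. Dntt, the polymerase that adds bases at immunoglobulin joints, named here after its values were seen, was at 1.18, 1.46, 0.228 and 0.330 FPKM. In adult injured cartilage Myb was at 0.784 and Lef1 at 0.628 FPKM, 1.84 and 4.06 times the adult sham. Il7r, also named after its values were seen, was at 0.682, 1.69, 0.137 and 0.880 FPKM. Akap12 was at 0.346 (adult sham) and 0.946 FPKM (adult injured). Of the 12 genes, 3 were below 0 after injury in adult cartilage, and the median log2 ratio was 0.51. Bst1 and Cd93, which myeloid cells also express, had larger injury log2 ratios, 2.65 and 2.26 in young and 2.37 and 2.13 in adult mice. They were the 2 of 12 genes that reached 2-fold after injury at each age, where 4.57% (young) and 6.90% (adult) of all genes were higher.

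Of 21 B cell surface and antigen receptor signalling genes, 7 were at least 2-fold lower in adult sham cartilage (all genes, 10.6%), none was 2-fold higher, and the median was −0.65. Tnfrsf13c, the receptor for the survival factor BAFF, was at 3.22, 4.33, 0.304 and 0.786 FPKM. Its libraries had the same order of levels as those of the Cd79 genes. After injury, 5 genes of the list reached 2-fold higher levels in young (all genes, 4.57%) and 8 in adult cartilage (6.90%), and Lyn, Btk, Syk, Pik3ap1 and Cd37, which macrophages or other white blood cells also use, were among them at both ages. Tnfrsf13c did not reach 2-fold after injury (0.34 in young and 0.45 in adult cartilage).

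Of 13 further transcription factors of the lineage, 3 were at least 2-fold lower in adult sham cartilage (all genes, 10.6%) and 1 was higher (2.66%). Spib was at 7.39, 9.67, 0.747 and 2.61 FPKM, with a log2 ratio of −2.26 between the shams and 1.05 after injury in adult mice. Pou2af1, a B cell coactivator of Oct factors, was at 4.98, 8.34, 0.440 and 1.78 FPKM, with −2.05 and 0.95. Both had their lowest value in adult sham cartilage, as Ms4a1, Cd79a, Cd79b and Pax5 did. Bcl6 was the one that was higher in adult sham cartilage, at 34.5 against 9.74 FPKM, and Spi1, which drives macrophages as well as B cells, was 2-fold higher after injury at both ages (1.88 and 2.17). Of 7 plasma cell genes, Mzb1 alone was at least 2-fold lower in adult sham cartilage, at 0.207 against 2.14 FPKM, whereas Jchain, the joining chain of secreted antibodies, had the opposite order of the ages, at 0.157, 0.172, 1.03 and 1.06 FPKM, with a log2 ratio of 0.81 between the shams.

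Markers of other cells were set beside the members. All 11 erythroid precursor markers were at least 2-fold lower in adult sham cartilage, with a median of −2.09, and their summed FPKM was 294.1 (sham) and 376.8 (injured) in young mice and 55.4 (sham) and 75.5 (injured) in adult mice. Alas2, the first enzyme of heme synthesis in red cell precursors, was at 133.2, 222.0, 30.5 and 29.8 FPKM. None of these markers was at 0. Proliferation markers were also at least 2-fold lower in adult sham cartilage, 10 of 10 (median −2.0). After injury, however, 4 of 10 in young (all genes, 4.57%) and 8 of 10 in adult mice (6.90%) were at least 2-fold higher. The sum of the proliferation markers was 99.9, 221.6, 15.8 and 57.9 FPKM. Of 11 neutrophil precursor markers, 1 was higher (all genes, 2.66%) and none lower (10.6%), with sums of 330.4, 571.4, 356.2 and 522.0 FPKM and with Elane at 15.6, 18.6, 38.0 and 37.0 FPKM.

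**Figure D4:**
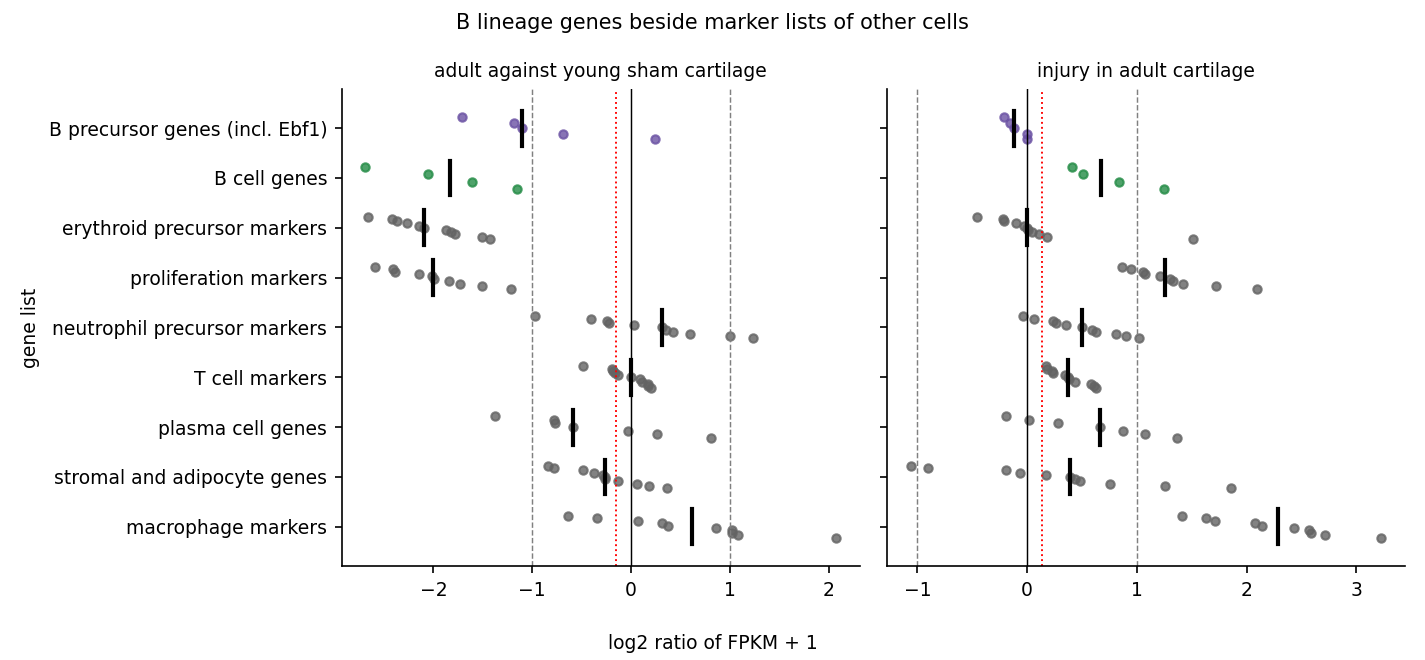
Log2 ratios of FPKM + 1 for the members and for marker lists of other cells, in adult against young sham cartilage (left) and after injury in adult cartilage (right). Each point is a gene, black bars are list medians, dashed lines mark 2-fold and the red dotted line is the median of all genes; B cell, erythroid and proliferation genes lie on the left of −1 in the first panel, and macrophage genes on the right of 1 in the second.

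T cell markers stayed low in all libraries, with sums over 11 genes of 2.86, 5.79, 2.32 and 6.57 FPKM. Cd3e was listed at 0 in adult sham and Cd3g at 0 in young sham cartilage, and none of the 11 genes reached 2-fold in any of the 4 comparisons. Only 3 of the 11 were at 1 FPKM or more in any library. With 1 FPKM added, a gene under 1 FPKM everywhere cannot reach 2-fold, so this count does not show that T cell genes were unchanged. Without the added 1, the sum after injury was 2.03 times the sham in young and 2.83 times in adult cartilage. In adult injured cartilage, macrophage markers were at least 2-fold higher in 10 of 10 genes (median 2.28, sum 293.7 to 1583 FPKM) and proliferation markers in 8 of 10 (median 1.25), against 6.90% of all genes. Erythroid markers were not, apart from Tfrc, and their median was −0.00. The part of these cells, and of the tissue taken with the cartilage, in the values of the members was not tested.

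Finally, the genes closest in pattern were sought over the 4 libraries. The profiles were log2(FPKM + 1) centred on each gene's mean, and likeness was the Euclidean distance among genes averaging 1 FPKM or more, 12415 for the precursor profile and 12414 for the B cell profile. The 10 genes nearest to the mean of Vpreb1, Igll1, Rag1 and Vpreb3 were Slfn14, Tnfrsf14, Gm4724, Ablim1, Slc38a5, Yaf2, Gata1, Fam129c, Mir7040 and AF357355, at distances of 0.098 to 0.206. Gata1, a transcription factor of erythroid and megakaryocytic cells, was at 2.0, 2.53, 0.443 and 0.489 FPKM. Among the 10 nearest to the mean of the B cell genes were Avpr1a, Esco2, Ifitm10, Tnfrsf13c, Gm6793, Smc2, Ccne1, Neil3 and Lman1, at 0.190 to 0.276. Esco2, Smc2 and Ccne1, which act in chromosome cohesion, chromosome condensation and entry into S phase, were also among them. Only 4 libraries enter each distance, so that many genes can lie close without any link.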

How the data were processed

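The authors deposited FPKM for 24532 genes in 4 libraries, calculated on mm10 from paired-end reads of TruSeq Stranded mRNA libraries; the submitters' processing notes list HISAT2 2.1.0 and StringTie 1.3.4d without their roles. FPKM are relative to transcript length and mapped fragments. Columns were matched to groups by name. Ratios of FPKM + 1 were taken on the log2 scale, with a 2-fold threshold, for 18181 genes that had a value above 0 in any library. With 1 library per group, no test was run. The added 1 FPKM understates differences of genes at low values. Fragment numbers are estimates from the step of the lowest products of FPKM and length for 17546 genes with 1 transcript, and no counting interval was derived from them. Counts of genes include all list members above 0. Shared sequence was the share of 31-base words that occur in another gene's transcripts (GENCODE M21 transcripts). Immunoglobulin constant genes, 11 by symbol, were not analysed here. The members, lists and alternatives were chosen with earlier results of these data known. From each other list, genes named were the 6 with the highest mean FPKM among those at 1 FPKM or more, and genes at least 2-fold changed in the direction of the members' median in 2 or more comparisons; other names are marked or belong to a stated count. The 10 nearest profiles were chosen by distance. Some genes that these rules select are not reported here. Alternatives were pseudocounts of 0.1 and 5 FPKM, a filter at 1 FPKM, TPM, median-of-ratios scaling, quantile normalization, thresholds of 1.5-fold and 3-fold, and leaving out members with 50% or more shared words. The calculation was tested on simulated data in which only genes averaging at least 5 FPKM were changed, which does not cover members below that level. Python 3.11.15, numpy 2.4.6, pandas 2.3.3 and matplotlib 3.10.9 were used.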

Additional observations from a re-analysis of the deposited data

Results flagged for a closer look

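Of the 9 members, 4 had log2 ratios of opposite sign after injury in young and in adult cartilage, each from 1 library per group, and the difference between the ages was not tested. Vpreb3 had 0.76 (young) and −0.21 (adult), a difference of −0.97 for adult minus young. The difference was −0.38 for Ebf1, −0.14 for Vpreb1 and −0.012 for Rag1. None of these 4 genes reached 2-fold after injury at either age, and the signs of Vpreb1 and Rag1 in young mice changed with the scaling.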

How the results depend on the processing

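No paired analysis was possible because each group held 1 library, and no replicate could be left out. Of 265 values of single members under the alternatives, 226 stayed on their side of 2-fold and within 1.5-fold of the reported value, and none that had passed 2-fold changed sign. Of the 226, 40 came from the filter at 1 FPKM, which cannot change the value of a member it keeps. With a pseudocount of 0.1 FPKM, 2 members were at least 2-fold higher after injury in adult cartilage in place of 1, and the members' median log2 ratios for adult against young mice were −2.13 in sham and −2.17 in injured cartilage. With 5 FPKM the 2-fold counts were 0 higher after injury in adult cartilage, 3 lower between the shams (median −0.42) and 3 lower between the injured libraries (median −0.46), since most members lie under 5 FPKM. On the TPM scale 2 members were at least 2-fold higher after injury in adult cartilage, where 11.05% of all genes were higher on that scale. Quantile normalization left 4 members lower between the shams (all genes, 5.27%), with a median of −0.92. A 1.5-fold threshold gave 1 higher member after injury in young and 2 in adult cartilage, and a 3-fold threshold gave 0 in adult cartilage and 4 lower between the shams. The counts with other pseudocounts or thresholds have no share of all genes beside them, so they cannot be read against a background. No member shared 50% or more of its words, so leaving such members out changed nothing, and leaving out Ebf1 kept the counts of 7 and 6 lower members. The filter at 1 FPKM removed Rag1 only. Depth limits the adult values of Vpreb1, Igll1, Rag1 and Vpreb3, where the estimated fragments were 8.55 to 27.5 per gene, and the adult sham value of Ms4a1 (15.6), on which its age difference and its injury ratio both rest.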

Other observations

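Factors that marrow stroma supplies to B cell precursors were examined as a list. Cxcl12, the chemokine that holds precursors in the marrow, was at 22.3 (sham) and 49.1 FPKM (injured) in young mice and at 30.7 (sham) and 53.3 FPKM (injured) in adult mice. Il7, the growth factor of pro-B cells, named after its values were seen, stayed at or below 0.171 FPKM in every library. Tnfsf13b (BAFF), which supports mature B cells, was at 0.363, 0.752, 2.71 and 3.14 FPKM, and was the only 1 of the 9 niche factors at least 2-fold higher in adult than in young sham cartilage, with a log2 ratio of 1.44, where 2.66% of all genes were higher. None was 2-fold lower there, against 10.6% of all genes, and 3 of 9 were below 0. The median of the list was 0.26. After injury 2 of the 9 were at least 2-fold higher in young mice, Cxcl12 (1.11) and Vcam1, an adhesion molecule (1.20), against 4.57% of all genes. In adult mice 2 were higher, Vcam1 (1.26) and Tnfsf13 (APRIL, 1.48), against 6.90%, and Lepr, a marker of marrow stroma, was at 3.58, 1.56, 4.87 and 1.81 FPKM, 2-fold lower in adult mice (−1.06), against 1.46% of all genes.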
